A study of Mus musculus with 4 samples.

Results

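The Obox genes are a mouse family of homeobox genes, and 7 of them (Obox1, Obox2, Obox3, Obox5, Obox6, Obox7 and Obox8) were taken by symbol from a table of 20171 genes, in which all 7 were present. An eighth symbol of the family, Obox4-ps35, is annotated as a lincRNA and is given here only beside the members. The isoform table assigned 89 of its 68012 isoforms to the 7 members. Obox1, Obox2, Obox5 and Obox7 are called the maternal members and Obox3, Obox6 and Obox8 the zygotic members, as the family is known.

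Homeobox genes encode transcription factors that bind DNA through a homeodomain. The Obox genes belong to the PRD class and sit in a cluster near Crx and Crxos, genes with a related homeodomain. Maternal Obox RNA is stored in the oocyte, the zygotic members are transcribed by the embryo itself, and the family is known to act redundantly in zygotic genome activation, the start of transcription from the embryo's own genome.

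The study read full-length cDNA of single mouse cells on the PacBio platform, with cell barcodes and unique molecular identifiers (UMIs). Oocytes and embryos came from 6- to 8-week-old C57BL/6J females, with DBA/2NCrl males as the sires, after gonadotropin injection, and the labels give the strain as DBA/2J x C57BL/6J. Collection followed the hCG injection by 20 h (MII oocytes of unmated females), 22 to 24 h (zygotes), 30 to 32 h (early 2-cell, E2C), 46 to 48 h (late 2-cell, L2C), 54 to 56 h (4-cell) and 68 to 70 h (8-cell). Blastocysts were taken at 88 to 90 h, and both 16-cell and 32-cell embryos at 78 to 80 h. The mouse embryonic stem cells (mESC) were of the male E14 Tg2A line, and no group received a further treatment or carried an altered gene. Cells were averaged by the oocyte, zygote or embryo named in their labels, and these served as replicates. There were 10 oocytes, 9 zygotes and 5 E2C, 6 L2C, 5 4-cell, 4 8-cell and 4 16-cell embryos from 121 of the 161 cells. The remaining 40 cells (22 32-cell blastomeres, 13 blastocyst cells and 5 mESC) name no embryo and are given as median and range, without a test.

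A level is given in UMIs per 100,000 UMIs of the cell, averaged over the cells of an embryo, so a change in the total RNA of a cell is not seen in it. A UMI counts 1 molecule, so levels of different genes were compared without division by length. Cells held between 4985 and 389775 UMIs, and 1 UMI was worth 0.511 per 100,000 in the median oocyte and 3.08 in the median 4-cell blastomere. The labelled stages were checked against markers. The 8 oocyte markers summed to between 3114 and 4269 per 100,000 in oocytes and to between 51.1 and 204.9 at L2C. The 6 late 2-cell markers were low, at most 22.5 in an L2C embryo, with Usp17le at 0. They reached 39.3 at E2C and 16.1 at the 4-cell stage, so they did not set L2C apart from its neighbours. Of 9 measured cumulus and granulosa cell markers, the sum stayed at or under 12.1 per 100,000 in any oocyte, zygote or embryo.

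The homeobox is shown for 4 members because it is the part that makes these genes a family and because it orders them differently from their timing. The sequences are the 180 coding bases of the homeobox in the GENCODE annotation of GRCm38, on chromosome 7, with codon 50 in capitals. Codon 50 is the position that sets which bases a homeodomain of this class prefers, and it was AAG, for lysine, in all 6 members in which a complete homeobox was found. In the genome, with the introns between, the Obox1 homeobox lies at chr7:15555567-15556192 on the plus strand. The others lie on the minus strand, Obox3 at chr7:15626284-15626933, Obox6 at chr7:15833909-15834517 and Obox8 at chr7:14332052-14332757.
Obox1: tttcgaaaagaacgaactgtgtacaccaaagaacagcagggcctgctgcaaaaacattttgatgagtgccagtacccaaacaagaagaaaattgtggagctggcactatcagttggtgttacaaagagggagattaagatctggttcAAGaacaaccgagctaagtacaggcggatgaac
Obox3: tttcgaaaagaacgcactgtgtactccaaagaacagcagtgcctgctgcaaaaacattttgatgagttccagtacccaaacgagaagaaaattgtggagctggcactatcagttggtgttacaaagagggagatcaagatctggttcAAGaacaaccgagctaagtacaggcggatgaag
Obox6: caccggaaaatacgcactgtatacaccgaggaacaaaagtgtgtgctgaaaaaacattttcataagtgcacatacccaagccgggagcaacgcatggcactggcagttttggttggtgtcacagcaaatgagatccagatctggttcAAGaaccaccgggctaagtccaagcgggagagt
Obox8: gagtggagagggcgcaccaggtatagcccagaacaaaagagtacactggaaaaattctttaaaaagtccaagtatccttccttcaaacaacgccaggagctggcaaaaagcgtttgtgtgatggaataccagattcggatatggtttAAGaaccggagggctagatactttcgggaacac

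By this measure Obox3, a zygotic member, stood with the maternal members. Its homeobox had 173 of 180 bases in common with that of Obox1 (96.1%), and that of Obox5 had 172 (95.6%). Obox6 had 128 bases in common with Obox1 (71.1%) and Obox8 had 101 (56.1%). Over the whole coding sequence identity was taken over all aligned columns, gaps included, so a difference in length lowers it. Obox3 then matched Obox5 at 81.9%, Obox6 at 63.5%, Obox7 at 60.7%, Obox1 at 57.3% and Obox8 at 46.9%. That order mixes length with likeness. Obox3 had 578 bases in common with Obox1, which is 615 bases long, 612 with Obox7 (657) and 825 with Obox5 (876). It had 740 in common with Obox6 (1044) and 484 with Obox8 (654). The annotated coding sequences were 204 codons long for Obox1, 291 for Obox5, 218 for Obox7, 335 for Obox3, 347 for Obox6 and 217 for Obox8. For Obox2, the most abundant member in oocytes and zygotes, the annotated coding sequence had 151 codons and no complete homeobox was found in it.

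Obox1, Obox2, Obox5 and Obox7 are close copies of each other, and this bears on each of their levels below. The annotated transcripts with the splice junctions of the most counted isoforms of Obox1 and Obox2 shared 1447 of 1464 aligned bases (98.8%). Obox7 matched Obox1 at 91.7% and Obox5 at 89.0%, and Obox1 matched Obox5 at 88.1%, while Obox6 and Obox8 matched Obox1 at 68.8% and 56.9%. The annotated gene of Obox1 (chr7:15388948-15556866, plus strand) also overlaps that of Obox2 (chr7:15388721-15398545, plus strand). Secondary alignments were turned off when the authors aligned the reads, so each read went to 1 place. The division of reads among Obox1, Obox2, Obox5 and Obox7 is therefore uncertain. Obox3 was left out of the transcript comparison because its most counted isoform has a single exon. Its homeobox is 96.1% like that of Obox1, and its annotated gene (chr7:15479825-15639902, minus strand) overlaps that of Obox1 in position. Whether reads were misplaced between Obox3 and these members was not tested. Obox7 (chr7:14659496-14665996, plus strand) and Obox8 (chr7:14331436-14333557, minus strand) lie at lower coordinates than the other members. Obox5 (chr7:15750131-15759800, plus strand) and Obox6 (chr7:15833241-15839678, minus strand) lie at higher ones.

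In oocytes the family was abundant. It held 1.24% ± 0.10 (SD, n = 10) of all UMIs of an oocyte, 1.33% ± 0.13 (n = 9) of those of a zygote and 0.884% ± 0.147 (n = 5) at E2C. From L2C to the 16-cell stage the means lay between 0.156% and 0.229%. The maternal members held 99.8% of the family's UMIs in oocytes and 99.7% at E2C, and 30.7% ± 12.7 (n = 6) at L2C. It was 37.4% ± 18.9 (n = 5) at the 4-cell, 38.7% ± 26.1 (n = 4) at the 8-cell and 70.4% ± 22.2 (n = 4) at the 16-cell stage, and its median was 97.8% in blastocyst cells. In the isoform table the share was 12.5% at L2C, 8.30% at the 4-cell, 14.5% at the 8-cell and 48.0% at the 16-cell stage. The family thus changed both its amount and its composition between the early and the late 2-cell stage, and these shares are given as a description.

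**Figure D1:**
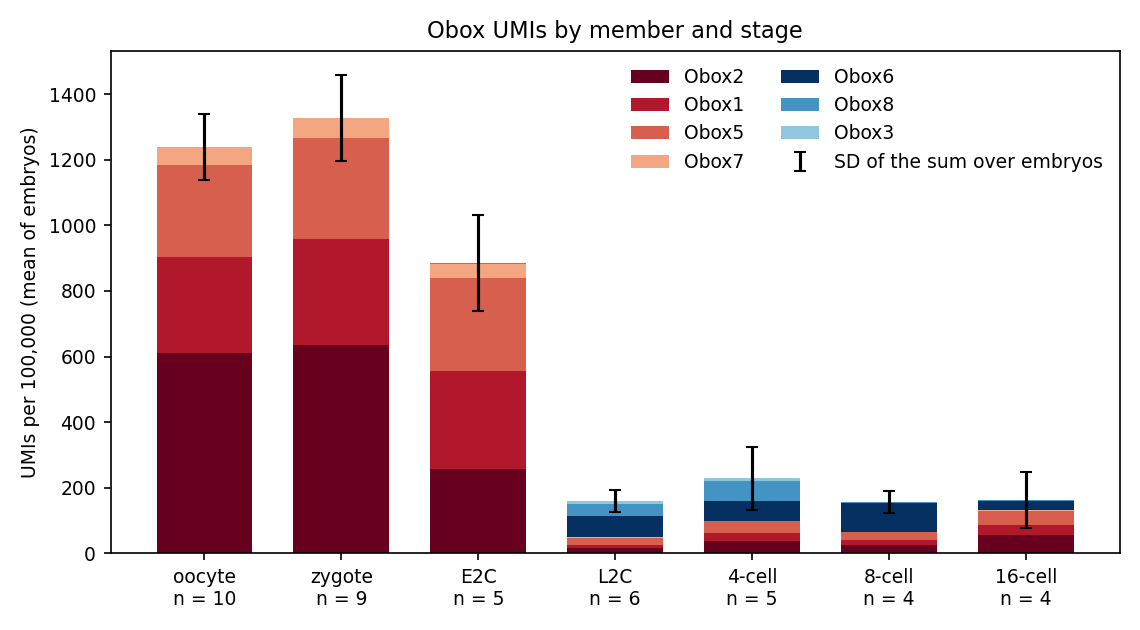
Mean level of the 7 Obox genes stacked by stage (y axis, UMIs per 100,000; bars start at 0), with the SD of their sum over oocytes, zygotes or embryos (n under each bar). Red shades are the maternal members and blue shades the zygotic members; the sum falls from 884 at E2C to 158 at L2C, where blue makes up most of the bar.

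Among the maternal members Obox2 was the most abundant in oocytes. It stood at 611 ± 59 (SD, n = 10) there, with the lowest at 499, the median at 616 and the highest at 717. Obox1 stood at 294 ± 26 and Obox5 at 279 ± 29, and their ranges (262 to 346 and 232 to 319) overlapped. Obox7 was lowest of the 4, at 54.8 ± 8.8, with a range of 41.4 to 67.8. The order was therefore Obox2, then Obox1 and Obox5 within each other's spread, then Obox7, and the ranges of Obox2 and of Obox7 overlapped with no other.

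The zygotic members were near the limit of detection in the same oocytes. Obox6 stood at 1.05 ± 0.50, from 21 UMIs in 10 oocytes, and every oocyte held at least 1. Obox8 stood at 0.905 ± 0.910, from 18 UMIs, with 2 oocytes at 0. Obox3 had 1 UMI in all 10 oocytes together, under the 3 counts (0.148 per 100,000 over the pooled oocytes) that a count of 0 would allow. Such intervals and floors cover counting error only.

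From oocyte to zygote, the comparison that asks what fertilization and the first hours change, no member passed the test. Stages were compared with limma on log2(level + 1) over 11682 genes, and a call needed an unadjusted p below 0.01 and a log2 change larger than 1 in either direction. All 7 members passed the filter on low levels, Obox3 only through L2C and 4-cell embryos. Of the 7, 0 were called and 0 had an unadjusted p under 0.05, where 3.24% of all genes tested were called in either direction, and edgeR and DESeq2 on the recovered UMIs also called 0. Zygotes stood at 636 ± 85 (SD, n = 9) for Obox2, 323 ± 34 for Obox1, 308 ± 47 for Obox5 and 60.0 ± 8.6 for Obox7. The log2 changes of the 7 members lay between -0.14 and 0.12 with SEs of 0.19 to 0.28. The study's list of cells gives the sequencing run of each oocyte and zygote. With run as a block Obox1 changed by 0.14 at an unadjusted p of 0.0463 in limma, the 1 member under 0.05, and 0 members were called. Within runs 1, 2 and 3 the change of Obox1 was 0.10, 0.26 and 0.16. Within runs 1 and 3 that of Obox2 was -0.05 and 0.05, and in run 2, with 1 oocyte and 2 zygotes, it was 0.44. Those of Obox5 were -0.05, 0.30 and 0.38 in runs 1, 2 and 3.

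**Figure D2:**
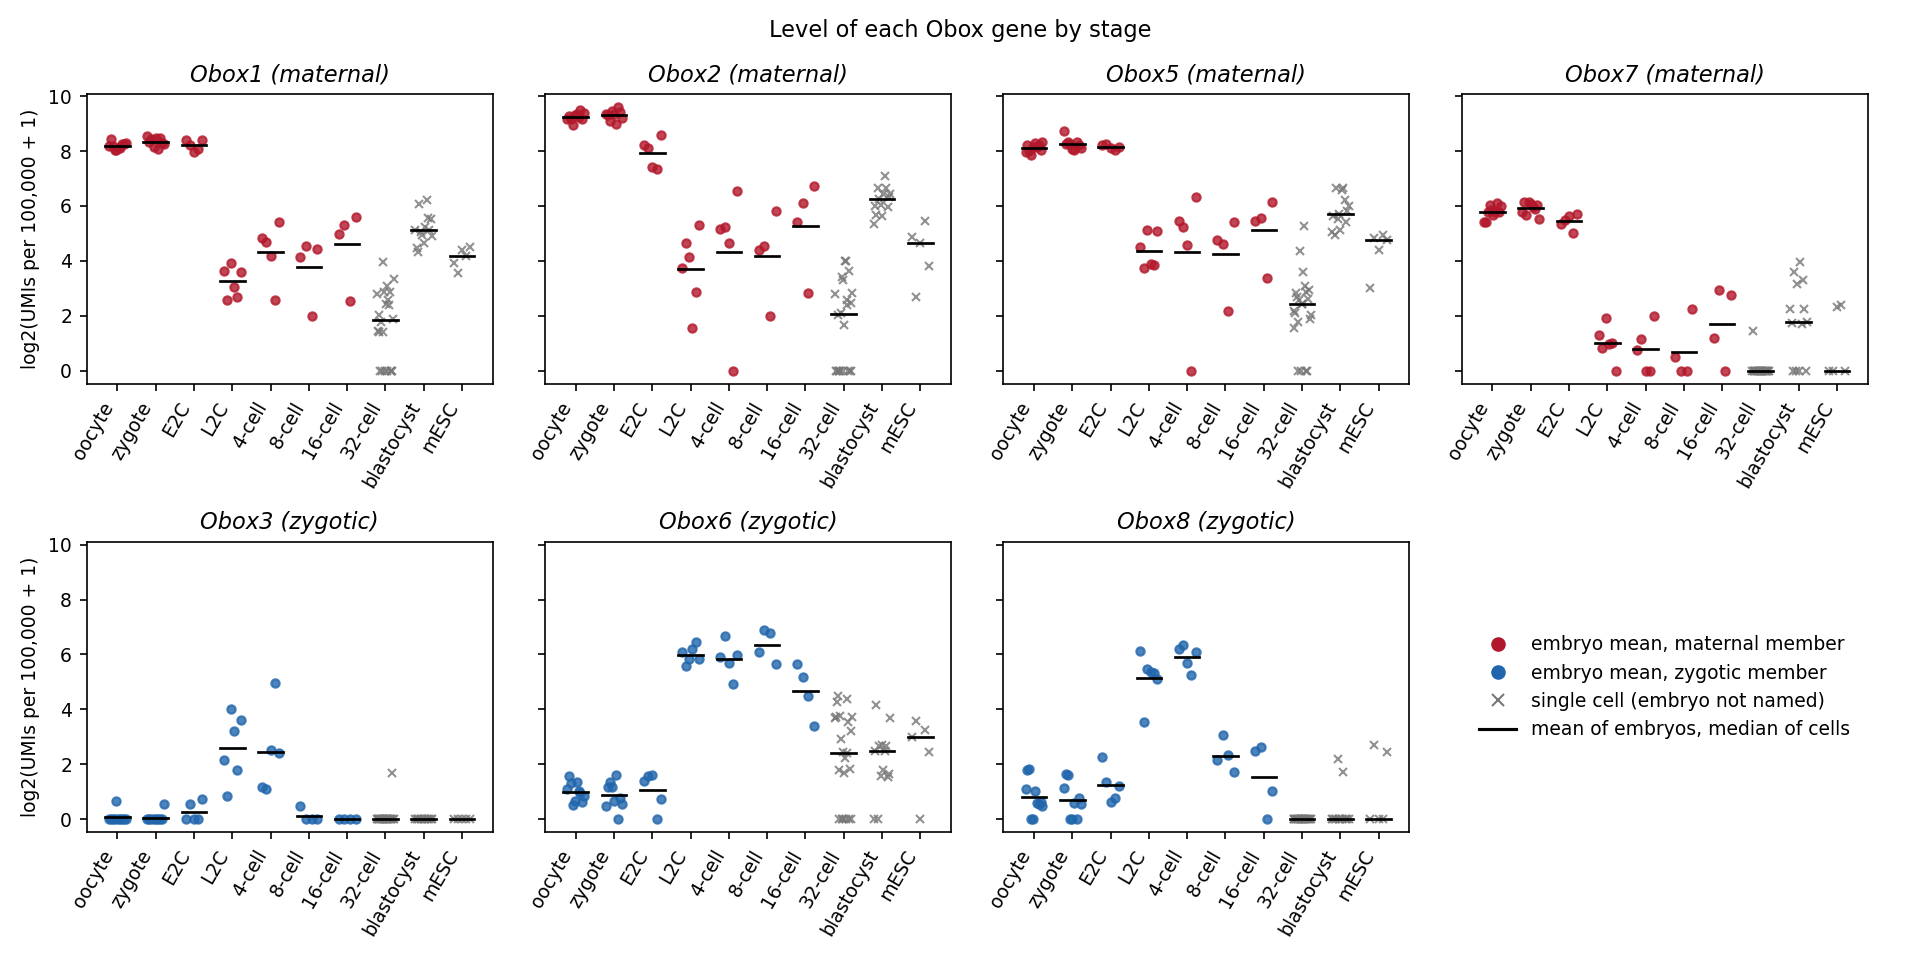
Level of each Obox gene by stage, as log2(UMIs per 100,000 + 1). Circles are oocytes, zygotes or embryos (red maternal, blue zygotic members), crosses are single cells that name no embryo, and lines are the mean of the circles or the median of the crosses on that log2 scale; the 4 maternal genes drop and the 3 zygotic genes rise between E2C and L2C, with no overlap between the circles of the 2 stages (over all genes tested, 14.6% are lower and 13.0% higher without overlap).

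From zygote to E2C, before the main rise of embryonic transcription, 1 maternal member was called lower and the other 3 were not. Obox2 fell by 1.38 on the log2 scale (SE 0.38, adjusted p = 0.00874 in limma). It was the 1 member of 7 called lower, where 2.75% of all genes were. Its level was 381, 164, 171, 274 and 298 in E2C embryos 1 to 5, all below the lowest zygote (501), as in 1.56% of all genes, and the mean went from 636 to 257.5. Embryos 2 and 3 were the low ones and embryo 1 the high one. Without array weights the change was -1.365 with an unadjusted p of 0.0166, over the limit of 0.01, so the size held and the call was lost.

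The other maternal members had no called change at this step. Obox1 stood at 297 ± 40 (SD, n = 5) at E2C, with a log2 change of -0.12 (SE 0.27, adjusted p = 0.861 in limma). Obox5 stood at 284 ± 18, with a change of -0.09 (SE 0.32), and Obox7 at 43.03 ± 7.8, with a change of -0.46 (SE 0.29). The E2C ranges of all 3 overlapped those of the zygotes. The zygotic members were still low, with means of 1.26 for Obox6, 1.59 for Obox8 and 0.227 for Obox3.

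The fall of Obox2 was also measured within each embryo, as the ratio of the members' levels, which does not depend on the total of the cell. These ratios were chosen after the levels had been seen, so they restate the fall of Obox2 and their p-values give no separate support for it. The log2 ratio of Obox1 to Obox2 was -1.06 ± 0.14 (SD, n = 10) in oocytes and -0.98 ± 0.20 (n = 9) in zygotes. In E2C embryos it was 0.27 ± 0.35 (n = 5). All E2C embryos (-0.16 to 0.70) lay above all zygotes (-1.33 to -0.67), a difference of 1.25 (two-sided exact permutation test, p = 0.000999, the smallest this design can give, adjusted p = 0.003996 over 12 ratios).

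The ratios of Obox2 to Obox5 and to Obox7 moved by -1.26 and -0.88 with the same exact p. Between Obox1 and Obox5 the difference was -0.01 (exact permutation p = 0.894). Those of Obox1 and Obox5 to Obox7 were 0.36 and 0.38 (exact permutation p = 0.049 and 0.053, adjusted p = 0.127 for both). Between oocyte and zygote the exact permutation p of the 6 ratios ran from 0.278 to 0.995. From UMIs of the isoform table the ratio of Obox1 to Obox2 moved by 1.07. Leaving out single E2C embryos gave differences between 1.14 and 1.36. Since Obox1 and Obox2 are 98.8% alike, a shift in how reads are divided between them was not tested.

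**Figure D3:**
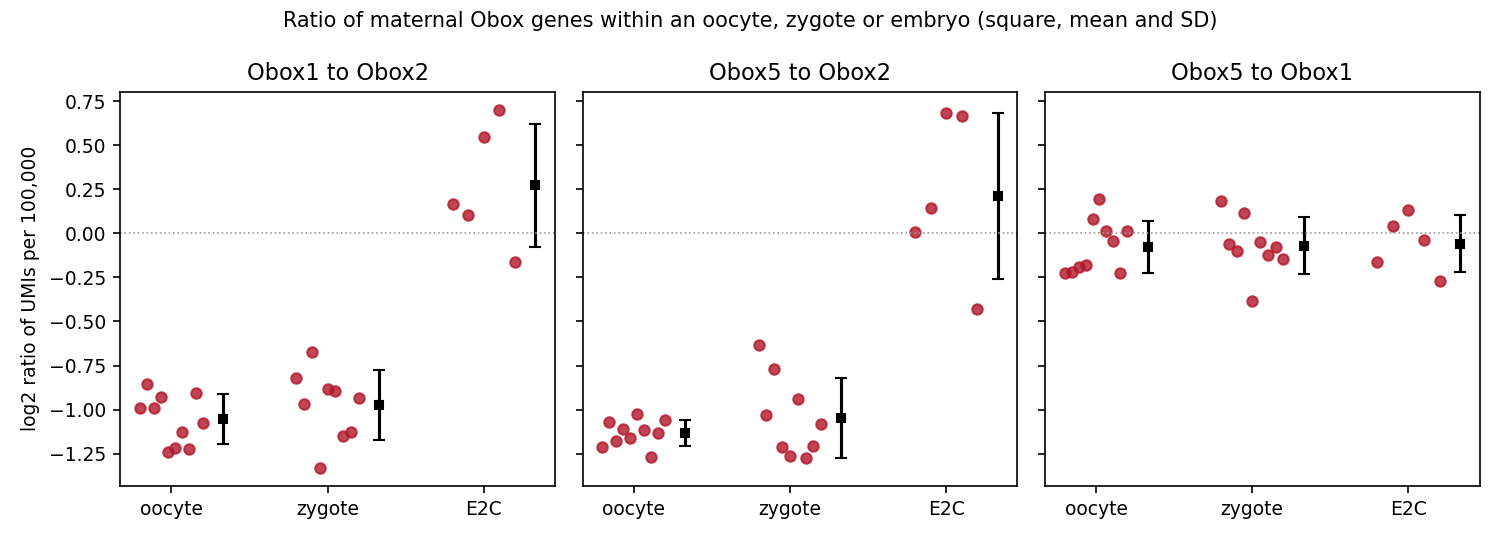
Log2 ratio of Obox1 to Obox2, Obox5 to Obox2 and Obox5 to Obox1 within each oocyte, zygote or E2C embryo (circles), with the mean and SD (square and bar). Both ratios to Obox2 rise by over 1 from zygote to E2C with no overlap, while that of Obox5 to Obox1 stays near 0 in the 3 stages.

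Between E2C and L2C, the interval of the main wave of zygotic genome activation in mouse, the family turned over. All 4 maternal members fell, where 22.8% of all genes tested were called lower, and the 3 zygotic members rose, where 25.6% were called higher. Of these 3, Obox3 entered the test only through its high stages. In each of the 7 the levels of the 5 E2C and 6 L2C embryos did not overlap. Over all genes tested, 14.6% were lower and 13.0% higher without overlap. These background shares are large, so neither the calls nor the lack of overlap alone set the family apart. The sizes are given below, and the median change over all genes was 0.03.

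Obox1 fell by 5.05 on the log2 scale (SE 0.38, adjusted p = 2.5e-17 in limma), from between 250 and 341 at E2C to between 4.93 and 14.3 at L2C, 3.07% of the former mean. Obox2 fell by 4.51 (SE 0.52, adjusted p = 6.34e-11). Its L2C embryos 1 to 6 stood at 39.0, 6.24, 1.97, 16.7, 23.9 and 12.3, from 2 to 29 UMIs per embryo. Obox7 fell by 4.35 (SE 0.39, adjusted p = 1.87e-14), to 1.18 ± 0.94 (SD, n = 6). Obox5 fell by 3.96 (SE 0.43, adjusted p = 1.09e-11), to 21.4 ± 10.0. The L2C mean was 7.53% of the E2C mean for Obox5, 6.48% for Obox2 and 2.74% for Obox7.

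The zygotic members rose from a few UMIs per embryo. Obox6 rose by 4.95 on the log2 scale (SE 0.39, adjusted p = 1.51e-16 in limma), and L2C embryos 1 to 6 held 55.7, 87.1, 72.6, 55.8, 46.3 and 66.8. Obox8 rose by 3.95 (SE 0.45, adjusted p = 4.81e-11), and the same embryos held 33.4, 38.9, 39.7, 43.1, 10.7 and 68.1. Obox3 rose by 2.06 (SE 0.35, adjusted p = 1.13e-06), to 11.1, 2.48, 8.28, 15.0, 0.784 and 3.5, from 35 UMIs in all. Embryo 5 was the lowest for all 3 genes. The change of Obox3 is understated, since 1 was added to low levels, and with 5 in place of 1 it was 0.88 and was not called. Obox3 reached the level of the filter in 5 L2C and 5 4-cell embryos and in no other, so its entry into the test rests on the stages where it is high. Either stage alone would have admitted it. Obox4-ps35 rose by 1.55 (adjusted p = 3.32e-05), to 4.12 ± 1.32.

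Taken from oocyte to L2C directly, the same 7 members were called in the same directions (19.1% of all genes were called lower and 32.0% higher). Obox2 fell by 5.85 on the log2 scale, Obox1 by 5.06, Obox7 by 4.69 and Obox5 by 3.94. Obox6 rose by 5.04, Obox8 by 4.36 and Obox3 by 2.28. This contrast shares its groups with the steps above.

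The zygotic members fell at different steps after L2C. From L2C to the 4-cell stage none of the 3 was called, as most genes were not (282 of 11682 were called higher and 500 lower). Obox6 stood at 60.5 ± 26.4 (SD, n = 5), Obox8 at 61.6 ± 17.5 and Obox3 at 8.32 ± 12.28. The Obox3 mean rested on embryo 2, at 30.1 from 3 UMIs, while the other 4 stood between 1.17 and 4.73. In the plot of each gene by stage the mean of Obox8 is highest here.

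From 4-cell to 8-cell embryos Obox8 and Obox3 fell, and Obox6 was not called. Obox8 held 67.8, 37.2, 50.5, 80.1 and 72.4 in 4-cell embryos 1 to 5, and 2.28, 4.03, 7.43 and 3.47 in 8-cell embryos 1 to 4. The change was -3.95 (SE 0.49, adjusted p = 1.39e-08 in limma), and the groups did not overlap, as 6.14% of all genes were lower without overlap. Obox3 changed by -1.64 (SE 0.38, adjusted p = 0.0012), with 1 UMI left in the 4 8-cell embryos, and the limit on its entry into the test holds here too. These were 2 of 7 members called lower, where 10.5% of all genes were. With 5 in place of 1 added to the levels, the change of Obox3 was -0.61 and its call was lost. Obox6 stood at 49.5, 109, 117 and 67.7 in the 8-cell embryos, a change of 0.15 (SE 0.42, adjusted p = 0.91). Obox4-ps35 was at 0 in all 8-cell and 16-cell embryos.

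From 8-cell to 16-cell embryos Obox6 fell, the 1 member of 7 called lower where 1.46% of all genes were. The 16-cell embryos 1 to 4 held 9.56, 21.5, 35.0 and 49.4, all under the lowest 8-cell embryo (49.5) and, for embryo 4, just under it, and 1.69% of all genes were lower without overlap. The change was -2.03 (SE 0.39, adjusted p = 0.00134 in limma). Without 16-cell embryo 1 it was -1.07 and was not called, and with 0.1 added in place of 1 it was -2.04 at an unadjusted p of 0.01 and was not called either. In the 32-cell, blastocyst and mESC cells the medians of Obox6 were 4.36, 4.57 and 7.01. Obox8 was at 2.69 ± 2.57 (SD, n = 4) at the 16-cell stage and had 0 UMIs in all 22 32-cell blastomeres, which allows up to 0.393 per 100,000 over their pooled UMIs. Obox3 had 0 UMIs in the 16-cell embryos, which allows up to 0.253.

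No maternal member was called lower at a step after L2C, and their levels varied widely within a stage. Of 11682 genes tested, 500 were called lower from L2C to the 4-cell stage, 1227 at the following step and 171 after that. Most genes were thus not called lower either, and the lack of such calls does not set these members apart. From L2C to the 4-cell stage 2 of the 7 members were called higher, where 2.41% of all genes were, Obox1 by 1.52 (adjusted p = 0.0299 in limma) and Obox2 by 1.62 (adjusted p = 0.122). The Obox2 call was lost without 4-cell embryo 1, 4 or 5, at changes of 1.35, 1.53 and 1.57. Without array weights it was 0.61. From 8-cell to 16-cell embryos 3 were called higher, where 1.90% of all genes were: Obox1 by 1.18, Obox2 by 1.45 and Obox7 by 1.12 (adjusted p = 0.121, 0.194 and 0.17). None of these 3 was called without 16-cell embryo 1 (changes of 0.69, 0.67 and 0.55), without 8-cell embryo 2 (0.56, 0.73 and 0.94) or without array weights (0.84, 1.08 and 1.04). Obox2 and Obox7 were also not called without 8-cell embryo 4 (1.36 and 0.83) or 16-cell embryo 3 (1.45 and 1.04), and Obox7 without 8-cell embryo 3.

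At the 4-cell, 8-cell and 16-cell stages the embryo with the most maternal Obox RNA was also the one with the most RNA of the 8 oocyte markers (Zp1, Zp2, Zp3, Gdf9, Bmp15, Mos, H1foo and Oosp1). In 4-cell embryo 1 the 4 maternal members summed to 216 per 100,000 and the oocyte markers to 353. In 4-cell embryo 2 the sums were 4.90 and 49.7, from 25411 UMIs, the fewest of the 4-cell embryos. At the 8-cell stage embryo 1 had 122 and 207 and embryo 2 had 9.49 and 25.7. At the 16-cell stage embryos 1, 3 and 4 had 228, 159.5 and 116 beside marker sums of 368, 292 and 234. Embryo 2, with 15 cells and 589926 UMIs the most deeply read, had 20.52 beside 15.4. The embryo lowest in the maternal sum was also lowest in the marker sum in each of these 3 stages. At L2C embryo 1 had the highest maternal sum and embryo 4 the highest marker sum.

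These sums also differed with the sequencing run. If no embryo was divided over runs, the numbers of cells per stage and run place 16-cell embryo 1 in run 1, embryo 2 in run 2 and embryos 3 and 4 in run 3. They also place 4-cell embryo 2 in run 2, 4-cell embryo 3 and 8-cell embryos 3 and 4 in run 3 and L2C embryo 1 in run 1. The lowest maternal sums of the 4-cell and 16-cell stages (4.90 and 20.52) were thus those placed in run 2, the run with the fewest oocytes and zygotes. Within run 3 the change from 8-cell to 16-cell embryos, 2 against 2, was 0.81 for Obox1, 1.29 for Obox2, 0.80 for Obox5, 1.82 for Obox7 and -1.08 for Obox6. The levels of these 5 did not overlap, but with so few embryos 13.5% of all genes were higher and 11.3% lower without overlap. With run as a block the answer depended on which of runs 1 and 2 held 8-cell embryo 1. In run 1, Obox2 (1.06) and Obox6 (-1.71) were called in limma, and in run 2 none was, with Obox2 at 1.25 and Obox6 at -1.67. This fit was added after seeing the data. For L2C to the 4-cell stage the runs of most embryos are not fixed, so embryo and run cannot be told apart.

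Both sums were also above 0 in most cells that name no embryo. In blastocyst cells the maternal members summed to a median of 154 (99.1 to 311) and the oocyte markers to 276, with Zp1 and Zp2 at 0. In mESC, a cultured line, the sums were 61.6 (43.7 to 94.7) and 140, with 5 of the 8 markers detected and Zp1, Zp2 and Bmp15 at 0. In 32-cell blastomeres they were 11.1 (0 to 52.9) and 19.3, with Zp2 at 0. All blastocyst cells were in run 1, with 5 oocytes and 4 zygotes, all mESC in run 3, with 4 and 3, and all 32-cell blastomeres in run 2, with 1 and 2, so stage and run cannot be told apart here. The part of oocyte RNA from elsewhere in the run, or of RNA kept since the oocyte, in the late maternal Obox levels was not tested.

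**Figure D4:**
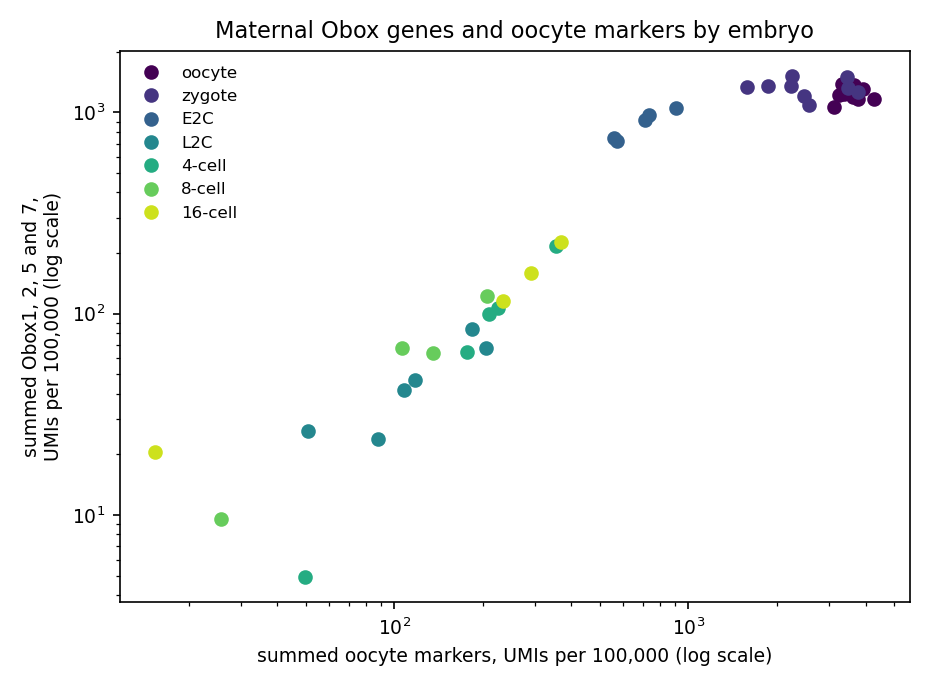
Summed level of Obox1, Obox2, Obox5 and Obox7 (y axis) against the summed level of 8 oocyte markers (x axis), both in UMIs per 100,000 on log axes, with 1 point for each oocyte, zygote or embryo. The 4-cell, 8-cell and 16-cell embryos spread along the diagonal from 4.90 to 228 on the y axis.

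The share of UMIs that were also placed in an isoform differed between the early and the late stages. In oocytes 23.1% of the Obox2 UMIs of the gene table (2860 of 12403) were also in the isoform table, and 34.9% at E2C. At the 4-cell stage it was 5.98% (14 of 234) and in blastocyst cells 5.13% (23 of 448). Obox1 went from 32.4% at E2C to 5.56% at the 4-cell stage and Obox5 from 33.2% to 3.46%. For Obox7 it was 82.4% in oocytes and 89.7% (26 of 29) at the 16-cell stage. Over all genes the share rose from 57.1% at E2C to between 69.7% and 82.9% later. Obox6 stood between 37.5% and 53.9% from L2C to the 16-cell stage, and Obox8 at 71.0% and 85.4% at L2C and the 4-cell stage. These shares pool the UMIs of a stage and have no test.

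**Figure D5:**
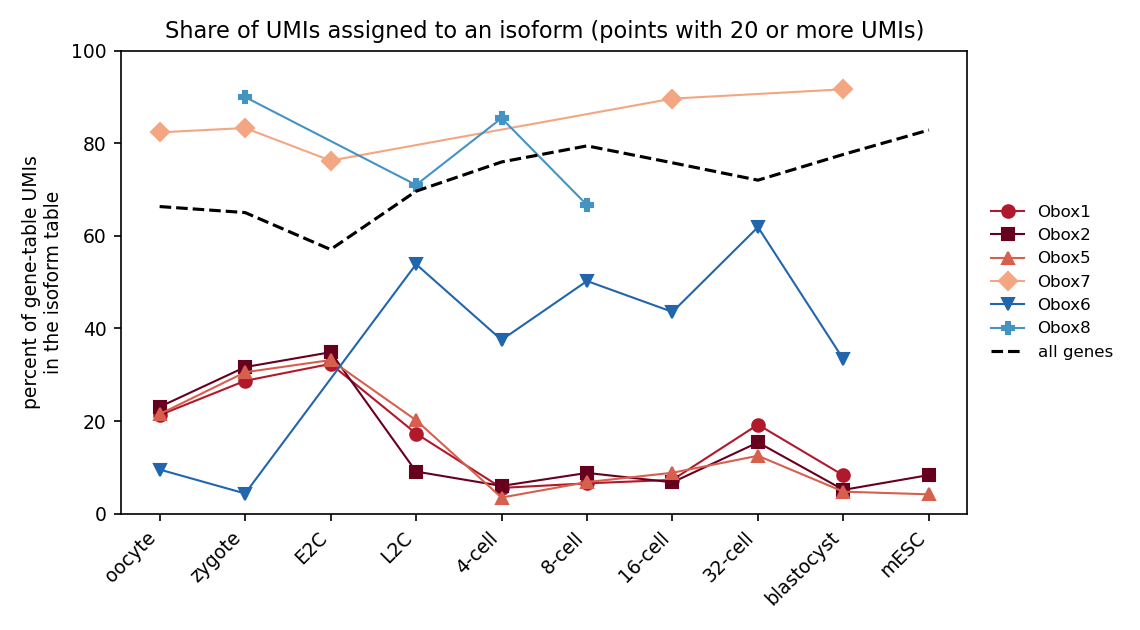
Percent of the UMIs of each gene in the gene table that are also in the isoform table, by stage (points with at least 20 gene UMIs; lines join the points of 1 gene; dashed, all genes). Obox1, Obox2 and Obox5 lie between 21% and 35% from oocyte to E2C and under 10% in 4-cell, 8-cell and 16-cell embryos, while Obox7 lies at 76% or more.

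Long reads showed that each of the well counted members had 1 leading isoform. For Obox1 it was PB.65419.234 (chr7:15546723-15556912, plus strand, 4 exons), with 68.2% of 4406 UMIs over 22 isoforms. For Obox2 it was PB.65419.14 (chr7:15388416-15398614, plus strand, 4 exons), with 72.5% of 8627 UMIs over 25 isoforms. For Obox5 and Obox7 the leading isoforms, PB.65426.9 and PB.65380.26, held 72.9% and 77.3%, over 21 and 10 isoforms. Obox6 had 4 isoforms, of which PB.65443.1 held 87.0%, and Obox8 had 5, of which PB.65359.1 held 76.3%. All of these had the splice junctions of an annotated transcript. Of the isoforms of the maternal members, 37 of 78 used a splice site that is not annotated, and 3 of 11 of the zygotic members did. The share was 14.6% over all 68012 isoforms, and the difference was not tested.

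Obox3 was read too rarely to describe its isoforms well. Its 16 UMIs in the isoform table fell on 2 of them. PB.65427.4 (chr7:15625302-15626166, minus strand) has a single exon, and PB.65424.5 (chr7:15479736-15491547, minus strand) has a splice site that is not annotated and lies between the leading isoforms of Obox2 and Obox1. Neither covers the stretch of the annotated Obox3 homeobox given above.

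The share of the leading isoform within its gene is given for oocytes, zygotes and E2C embryos, without a test. For Obox2 it was 70.3% ± 2.8 (SD, n = 10), 73.5% ± 4.2 (n = 9) and 61.3% ± 5.8 (n = 5), the last being the lowest. For Obox1 it was 66.5% ± 6.5, 69.9% ± 5.6 and 63.2% ± 7.1. For Obox7 it was 78.5% ± 6.1, 77.5% ± 4.9 and 71.5% ± 8.8. That of Obox5 was 70.6% ± 6.2, 74.2% ± 3.2 and 69.6% ± 9.6, so it hardly moved from oocyte to E2C. After E2C few embryos held 10 UMIs of a maternal member.

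In the test of single isoforms 48 isoforms of the members were among 29409 tested. From oocyte to zygote 0 of 48 were called, where 1.48% of all isoforms were, and 16 had an unadjusted p under 0.05. Over all isoforms 14.9% had one, a smaller share. Isoforms of 1 gene share their source, and the excess was not tested. From zygote to E2C 1 fell, where 2.94% of all did, and 1 rose, where 2.23% did. The one that fell was the leading Obox2 isoform PB.65419.14, from 201 ± 140 (SD, n = 9) to 83.0 ± 7.9 (n = 5), a change of -1.10 (adjusted p = 0.0813 in limma). The one that rose was the Obox1 isoform PB.65419.365, which lacks part of the annotated junctions, from 7.12 to 20.0, a change of 1.17 (adjusted p = 0.0667). Neither passed an adjusted p under 0.05.

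From E2C to L2C 31 of the 48 isoforms fell, where 13.1% of all isoforms did. They were 10 of 13 of Obox2, 9 of 10 of Obox1, 8 of 10 of Obox5 and 4 of 7 of Obox7. Some of them, such as PB.65419.166, PB.65419.378 and PB.65426.97, reached the level of the filter in all oocytes, zygotes and E2C embryos. At L2C these did so in at most 1 embryo, so they entered the test only through the stages where they are high. The number that fell is therefore a description. The 5 that rose, where 12.9% of all did, were 3 of Obox6 and 2 of Obox8. Of these, PB.65359.3 and PB.65443.3 were at the level of the filter in no oocyte, zygote or E2C embryo. PB.65443.1, the leading isoform of Obox6, was at that level in 1 E2C embryo and in no oocyte or zygote. Each of these isoforms thus entered the test through L2C and later stages, where it is high. No isoform of a maternal member was called higher and none of a zygotic member lower, and the other 12 were not called. Among those called higher, the leading isoform of Obox6 went from 0.347 to 39.2 and that of Obox8 from 1.52 to 22.5.

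Obox8 had a shorter form that was seen at the L2C, 4-cell and 8-cell stages. PB.65359.3 (chr7:14331436-14333102, minus strand, 2 exons) lacks part of the annotated junctions and held 38 of 169 Obox8 UMIs at L2C (22.5%) and 32 of 311 at the 4-cell stage (10.3%). Within embryos these shares were 21.4% ± 12.5 (SD, n = 5) and 10.6% ± 9.1 (n = 4), which overlap. It had 0 of the 45 earlier Obox8 UMIs of the isoform table in oocytes, zygotes and E2C embryos, which allows a share of up to 6.67%. On the minus strand it lacks the 5' end of the leading isoform PB.65359.1 (chr7:14331433-14333653). The paper states that some transcripts without the start codon part might arise from incomplete reverse transcription, and this was not tested for PB.65359.3. From L2C to the 4-cell stage 1 isoform rose, where 2.61% of all did, and 1 fell, where 1.68% did. The former was PB.65359.5 of Obox8, from 0.995 to 4.49 (change 1.55, adjusted p = 0.0173 in limma), and the latter PB.65443.3 of Obox6 (change -1.24, adjusted p = 0.117).

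From 4-cell to 8-cell embryos 4 isoforms fell, where 4.30% of all did. They were the 3 tested Obox8 isoforms, by 4.06 (PB.65359.1), 2.04 (PB.65359.3) and 2.34 (PB.65359.5), and 1 of Obox6. PB.65359.3 and PB.65359.5 reached the level of the filter in 5 and 4 4-cell embryos but in 1 and 0 8-cell embryos. Their entry into the test thus rests mostly on stages where they are high. The 1 that rose, where 3.63% of all did, was PB.65443.3, also of Obox6 (change 1.36, adjusted p = 0.022 in limma). From 8-cell to 16-cell embryos 2 rose, where 1.05% of all did, and 2 fell, where 0.921% did. The leading isoform of Obox6 fell by 2.45 (adjusted p = 0.000675), and those that rose were the leading isoforms of Obox5 (change 1.82, adjusted p = 0.0303) and of Obox7 (change 1.16, adjusted p = 0.271).

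A stretch of 25 bases was common to the start regions of 5 members, and it is shown because it includes 4 maternal members and Obox3, which are active at different times. RefSeq start windows of 300 bases (GRCm38.p6) were at hand for Obox1, Obox2, Obox3, Obox5 and Obox7, and none matched for Obox6 and Obox8. Among 32851 such windows the stretch was found in 5 (0.0152%), those of these members. It lies at chr7:15547159-15547183 in Obox1, chr7:15388850-15388874 in Obox2, chr7:15750260-15750284 in Obox5 and chr7:14659624-14659648 in Obox7, all on the plus strand, and at chr7:15639862-15639886 on the minus strand in Obox3.
shared stretch: gtgagaattaaggatttgaatattg

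The exons of the leading isoforms of the maternal members included this stretch, but the reads that hold it were not counted. Some other isoforms, such as PB.65419.292 of Obox1, began downstream of it. The leading isoforms began upstream of the RefSeq start by 534 bases (Obox1), 435 (Obox2), 311 (Obox5) and 220 (Obox7). Their exons covered all 300 bases of the window in Obox1, Obox2 and Obox5 and 270 in Obox7. The windows of Obox1 and Obox2 had 203 bases in a row in common, and those of Obox5 and Obox7 had 134. The motif GGATTA, or TAATCC on the other strand, which homeodomains of the Crx and Otx type bind, was in the window of Obox3 alone of the 5, and in 7.06% of all windows. GGATTT, on either strand, was in 12.9% of all windows and lies within the shared stretch itself, so its presence in all 5 was given by the choice of the stretch. A match is a description of letters, and binding was not measured here.

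Sister blastomeres of 1 embryo were compared by their counts, with exact Poisson intervals that cover counting error only. At E2C the 95% intervals of the 2 sisters overlapped for every member in all 5 embryos. Obox3, Obox6 and Obox8 held at most 5 UMIs in a pair there, so their intervals could hardly lie apart. The share over all genes was not taken at E2C, so E2C cannot be set against L2C. At L2C the intervals of Obox6 lay apart between sisters in 2 of 5 embryos, with 42.7 against 91.0 per 100,000 in embryo 6 (29 and 52 UMIs) and 42.7 against 102.5 in embryo 3 (27 and 52 UMIs). Over all genes tested with 56 to 103 UMIs in a pair, the range of Obox6 there, the intervals lay apart in 6.11% of 982 gene and embryo combinations. At the 4-cell stage the cells with the lowest and the highest level, picked as such, lay apart in 1 of 5 embryos, embryo 4, at 63.9 and 132. With 9 to 168 UMIs in an embryo this share was 2.99% over all genes. Embryo 4 had 168 UMIs, the top of that range, and intervals of low counts seldom lie apart. The share at its own depth was not taken. Noise from capture and amplification is not in these intervals. For the other 6 members the intervals overlapped in every embryo of these stages. Obox3 and Obox7 held at most 16 UMIs in an embryo at L2C and the 4-cell stage and could hardly lie apart. Shares over all genes were taken at the counts of Obox6 only, so this overlap is a description. Obox8 stood at 11.0 and 10.3 in the sisters of L2C embryo 5, the lowest, and at 66.2 and 70.0 in those of embryo 6, the highest, while the sisters of embryos 2, 3 and 4 lay between 33.5 and 51.5.

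The genes whose levels followed each member most closely over the 43 oocytes, zygotes and embryos are given as a description. Pearson's r on the log2 scale is dominated by the fall or rise at L2C that many genes share. For Obox1 they were Oosp3 (r = 0.985), E330034G19Rik and Oas1d. For Obox2 they were E330034G19Rik (r = 0.977), Rfpl4 and Bcl2l10, and for Obox5 Btg4 (r = 0.987), D6Ertd527e and Rfpl4. For Obox7 they were Dnajb4 (r = 0.974), Neil3 and AU016765. Obox6 ran with Mt1, a metallothionein (r = 0.970), Tmem41b and Gcsh. Obox8 ran with Exoc3l2 (r = 0.950), Unc119b and AC133103.1, and Obox3 with Cox4i2 (r = 0.917), Rab43 and 1600025M17Rik. Exoc3l2 went from 0.109 at E2C to 52.5 at L2C, 71.4 at the 4-cell stage and 7.01 at the 8-cell stage. Between the zygotic members r was 0.804 for Obox6 and Obox8, 0.775 for Obox3 and Obox8 and 0.542 for Obox3 and Obox6. The genes above were picked for the highest r of all tested genes outside the family, so these values cannot be set against theirs.

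Other genes of the PRD class were few in these data. Of 29 listed, 17 were in the table and 8 were tested. From E2C to L2C 1 was called higher and 3 lower, beside 25.6% and 22.8% of all genes, with a median change of -0.38 against 0.03 over all genes. Crxos, a neighbour of the Obox cluster with paired homeoboxes, rose by 4.03 (adjusted p = 1.33e-14 in limma), from 8.89 to 147.8 per 100,000. It then rose by 1.67 from the 4-cell to the 8-cell stage, to 662, the step at which Obox8 and Obox3 fell. Nobox, an oocyte transcription factor, fell by 3.08 (adjusted p = 1.4e-09). Duxf3, which encodes the 2-cell factor DUX, rose by 2.45 from zygote to E2C (adjusted p = 2.06e-19) and was at 0 at L2C, the stage at which the zygotic members were first called higher.

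Among 28 tested transcription factors linked to zygotic genome activation, 9 were called higher and 6 lower from E2C to L2C, with a median change of 0.02, beside 25.6% and 22.8% of all genes. Dppa4 rose by 4.51 and Gabpa by 3.67, and Dazl, an RNA-binding protein of germ cells that was placed in this list, fell by 4.62. Of 23 tested 2-cell transcripts, 10 were called higher and 0 lower from zygote to E2C, where 4.52% of all genes were called higher. Zscan4d rose by 1.99 and Zscan4c by 1.90 there, a step before Obox3, Obox6 and Obox8. Of 28 tested oocyte factors and egg genes, 17 were called lower and 2 higher from E2C to L2C, with a median change of -2.10, beside 22.8% of all genes called lower and 25.6% called higher. The changes were -5.91 for Oog4 and -5.30 for Rfpl4, beside -5.05 for Obox1.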

How the data were processed

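Single-cell full-length cDNA of mouse oocytes, embryos and mESC was read on the PacBio platform in 3 runs. The authors built consensus reads with SMRT-Link and took cell barcodes and UMIs with scISA-Tools. They aligned the reads to mm10 with minimap2 without secondary alignments, and assigned them to the 10x Genomics mm10 gene models with gffcompare. Isoforms came from cDNA_Cupcake and SQANTI3, and every isoform in the deposited table was seen in at least 5 cells. The values the authors deposited are CPM divided by 10, that is UMIs per 100,000 UMIs of a cell. Divided by what 1 UMI is worth in a cell, 100% of the values above 0 came out whole, within 0.1, and UMIs were recovered in this way.

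Cells were averaged by oocyte, zygote or embryo, and 43 of these entered 1 limma 3.58.1 fit of 7 stages (trend and array weights) on log2(level + 1). Log2 fold changes are on that scale, which understates those of low genes. Genes and isoforms with at least 1 UMI per 100,000 in at least 4 embryos were tested, 11682 genes and 29409 isoforms. Adjusted p-values are Benjamini-Hochberg over all of them, and within-embryo ratios were compared by exact permutation. Embryos of a stage can share females and runs, so p-values measure the spread between these embryos. The run of an embryo after the zygote is not part of its name and was placed, where possible, from the numbers of cells per stage and run. On simulated data for zygote to E2C (11682 genes), all 26 genes changed 4-fold with a mean of at least 5 per 100,000 were called. Of the unchanged genes 0.17% were called. The simulation gave all genes the same dispersion and held no effect of run or embryo quality, so these rates need not hold for the embryos. Alternatives were edgeR 4.0.16 and DESeq2 1.42.0 on summed UMIs, other pseudocounts, filters and scalings, and leaving out single embryos. The software was R 4.3.3, Python 3.11.15, numpy 2.4.6, scipy 1.17.1 and pandas 2.3.3.

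The members and gene lists were chosen with earlier results of these data known. Beyond the members, up to 3 called genes with the largest change of a list were named, the 3 genes outside the family with the highest Pearson r to a member, and isoforms with at least 10 percent of the isoform UMIs of a member in any stage, up to 3 per member. The isoforms PB.65424.5 and PB.65427.4 of Obox3 were named because they are its only ones. A further table of 16 columns, on intact and divided oocytes, could not be tied to a sample and was not used.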

Additional observations from a re-analysis of the deposited data

Results flagged for a closer look

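Over 48 sets of members by stage, 6 held 1 value that stood far from the others of its stage, measured by its gap to the nearest value over the whole range. Chance alone gives this in about 1 of 20 sets of normally distributed values, a shape for which the levels were not checked. Chance gives no such rate for the 3 sets with 1 UMI and 0 in all others, where the gap is the whole range by construction. Of the 6, 4 were values of Obox3 and rested on 1 to 3 UMIs. They were oocyte 5 at 0.5998 per 100,000, zygote 1 at 0.4542 and 8-cell embryo 4 at 0.4056, each from 1 UMI with all others at 0, and 4-cell embryo 2 at 30.09, from 3 UMIs, with the next at 4.729. Obox5 stood at 419.1 in zygote 9, from 1033 UMIs, with the next zygote at 323.7. Obox7 stood at 3.74 in 8-cell embryo 1, from 10 UMIs, with the next at 0.3981, and that embryo also had the highest sum of oocyte markers among the 8-cell embryos.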

How the results depend on the processing

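No called change reversed its direction under an alternative. The calls of the 7 members from E2C to L2C and from oocyte to L2C were made under each alternative except that Obox3 was lost with a pseudocount of 5 (changes of 0.88 and 0.93). Among the 1442 values of single members under an alternative, 1372 stayed on their side of the limits, 50 lost a call and 20 gained one.

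The counts at other steps moved in both directions. Without array weights 0 were called from zygote to E2C, 1 from L2C to the 4-cell stage and 1 from the 8-cell to the 16-cell stage, where 1, 2 and 4 were reported. From L2C to the 4-cell stage 1 was also called with a pseudocount of 0.1 or 5, with no filter and at an adjusted p under 0.05. From the 4-cell to the 8-cell stage 1 was called with a pseudocount of 5, and 4 without L2C embryo 1 and 4-cell embryo 2, those with the fewest UMIs, an alternative chosen after seeing the data. From the 8-cell to the 16-cell stage 0 were called with a pseudocount of 0.1, 1 at an adjusted p under 0.05, with TMM factors or with edgeR, and 2 with DESeq2. With run as a block in 8-cell and 16-cell embryos, also chosen after seeing the data, 2 were called with 8-cell embryo 1 placed in run 1 and 0 with it in run 2.

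With single embryos left out, 1 to 3 genes were called from L2C to the 4-cell stage, 2 to 4 from the 4-cell to the 8-cell stage and 0 to 5 from the 8-cell to the 16-cell stage, where none was called without 16-cell embryo 1. Obox5 was then called higher from L2C to the 4-cell stage without 4-cell embryo 2 (1.22), and Obox1 lower from the 4-cell to the 8-cell stage without 4-cell embryo 2 (-1.11) or 8-cell embryo 1 (-1.13). Embryos of stages with more than 5 of them were not left out.

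Of the isoforms, 3 were called from oocyte to zygote with a pseudocount of 0.1. From zygote to E2C 1 was called with a filter of 0.5, without array weights or with a pseudocount of 0.1. From L2C to the 4-cell stage 1 was called with a pseudocount of 0.1, and from the 8-cell to the 16-cell stage 2 without array weights. With single embryos left out the counts were 1 to 3 from zygote to E2C, 31 to 36 from E2C to L2C, 0 to 2 from L2C to the 4-cell stage, 3 to 5 from the 4-cell to the 8-cell stage and 2 to 5 after it.

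In the isoform table the family held 0.4363% of all UMIs in oocytes, 0.5902% in zygotes, 0.5009% at E2C, 0.09069% at L2C and 0.0988%, 0.0569% and 0.029% at the 4-cell, 8-cell and 16-cell stages. The maternal members held 99.61% of its UMIs in oocytes, 99.74% in zygotes, 12.49% at L2C, 8.304% at the 4-cell stage and 47.97% at the 16-cell stage. TMM factors moved the median change over all genes by -0.1727 from E2C to L2C and by 0.1595 from the 4-cell to the 8-cell stage. The cause of these differences was not tested. No paired analysis was possible because replicates of different stages are different embryos and their numbers name no shared source. Depth limits most the zygotic members in oocytes and zygotes, Obox3 throughout, and L2C embryo 1 and 4-cell embryo 2, which held the fewest UMIs.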
